A study of Mus musculus with 6 samples.

Results

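Transcripts of 10 genes, the 7 sirtuins and 3 regulators of NAD+ or of PGC-1α acetylation, were followed in microglial cells with 17 of the 56605 probes of a mouse array. Sirtuins are deacetylases and deacylases that use NAD+ as a co-substrate, so their activity depends on how much NAD+ a cell makes and how much other enzymes use. PGC-1α, a transcriptional coactivator that drives mitochondrial biogenesis and oxidative metabolism, is itself a sirtuin substrate: SIRT1 removes acetyl groups from it, which raises its activity, and the acetyltransferase KAT2A (also called GCN5) adds them. NAMPT is the rate-limiting enzyme of NAD+ salvage from nicotinamide, and PARP1, a DNA damage responsive poly(ADP-ribose) polymerase, competes with the sirtuins for NAD+. The question was which transcripts of these 10 genes (Sirt1 to Sirt7, Nampt, Parp1 and Kat2a) differed in LPS-treated BV2 cells with and without overexpression of PGC-1α. Arrays measure transcripts only, so neither the acetylation of PGC-1α nor the activity of any sirtuin was measured here.

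BV2 cells are a continuous mouse cell line of microglial origin that responds to LPS (lipopolysaccharide, from the outer membrane of bacteria) with an inflammatory program. All 6 arrays came from LPS-treated BV2 cells, 3 of them without (control) and 3 with overexpression of PGC-1α. Arrays 1 and 2 of each group lay on slide 1 and array 3 of each group on slide 2. According to the cell culture methods, PGC-1α was expressed from a lentivirus with a ubiquitin promoter, and the overexpressing cells were selected with puromycin. The methods also name a negative control virus, but do not say whether the cells of the control arrays carried it or were selected. The labels do not say whether the 3 arrays of a group came from separate cultures, so the p-values measure only the spread between these RNA samples. The genes were chosen by name, and every probe whose accession maps to one of them was kept, which gave 17 probes for 10 of the 23462 genes matched on the array. All 17 passed the filter on dim probes, 16 of them were well above background on all 6 arrays, and 0 were saturated. The exception was Parp1, whose spot on overexpression array 1 was marked as an outlier and left out, so that its overexpression mean rests on 2 arrays.

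Levels are log2 intensities after subtraction of each array's 75th percentile, so a level of 0 is the brightness of the 75th percentile spot and a level of -1 is a brightness 1 log2 unit below it. A change is the mean level of the overexpression arrays minus that of the control arrays. A probe was past the threshold when its Benjamini-Hochberg adjusted p over all 38919 tested probes was under 0.05 in the limma fit. The scaling matters for every direction below, because the median change of all tested probes was 0.25 here, and 0.05 with quantile normalization, which forces all arrays to the same distribution of values. Where a direction depended on it, both values are given.

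The 75th percentile spot had an intensity of 1617 to 1893 on the control arrays and 855.8 to 1268 on the overexpression arrays. Pearson's r between arrays was 0.9831 to 0.9944 within a group and 0.9387 to 0.9649 between groups across probes, which are not independent replicates. The overexpressed gene gave no firm check of the labels: Ppargc1a, which encodes PGC-1α, has 2 probes, both too close to background to be tested with the others. Probe A_51_P279038 read -6.21, -6.37 and -7.71 in controls and -5.70, -5.28 and -5.90 with overexpression, a change of 1.14 (SE 0.41, limma adjusted p = 0.069 without the filter), and probe A_55_P2745394 changed by 0.26 (SE 0.29, adjusted p = 0.49). Every direction below therefore refers to the arrays labelled as overexpression. Of the microglia and macrophage markers, Aif1, Cd68, Itgam, Csf1r, Tyrobp, Tmem119, Ptprc and Adgre1 were well above background on all 6 arrays, while Cx3cr1 and P2ry12 were well above it on none. Tmem119, a marker of homeostatic microglia, fell by 2.68 on the log2 scale, and by 2.71 after quantile normalization (limma adjusted p = 0.00014 there). Cd68, Itgam, Csf1r and Tyrobp were past the threshold at 0.46, 0.75, 0.67 and 0.74 under the 75th percentile scaling. None of the 4 was after quantile normalization (-0.16, 0.11, 0.27 and 0.12), where Adgre1 was lower (-0.47, adjusted p = 0.020). The other Itgam probe changed by 0.09 under the 75th percentile and did not pass. Markers of other cell types were also well above background on all 6 arrays, 3 of 5 for astrocytes (mean control levels of the list -6.95 to -2.50, overexpression levels -5.96 to -1.64), 4 of 5 for neurons (-6.53 to 4.65 and -5.69 to 5.35), 4 of 5 for oligodendrocytes (-6.37 to -0.36 and -5.46 to -0.15) and 4 of 5 for fibroblasts (-6.28 to 3.53 and -5.27 to 4.30), and several differed between the groups. Of the 5 tested fibroblast markers 4 were past the threshold higher and 1 lower, and 3 and 1 under both scalings (Col1a2, Col3a1 and Dcn at 1.12, 1.01 and 0.97, and Pdgfra at -1.63, with another Pdgfra probe past the threshold at 1.13). Of the 4 tested astrocyte markers 2 were higher under both scalings (Aqp4 at 0.87, with 2 of its 3 tested probes past the threshold under the 75th percentile, and Aldh1l1 at 0.79). Of 5 oligodendrocyte markers 2 were higher under both scalings (Mag at 0.97 and Mobp at 0.90). Of 5 neuron markers Rbfox3 was higher (1.14) and Tubb3 lower (-0.63) under both, and Snap25 was higher (0.71) only under the 75th percentile. The tested probes of Col3a1, Mobp and Rbfox3 were close to background in controls (mean levels -6.28, -6.37 and -6.75). Each was well above it on only 2 control arrays but on 3 overexpression arrays. These 3 probes thus passed the filter on dim probes only through the group where they were higher. They remain in the counts above, but neither a direction nor a size is read from them. All 6 arrays came from 1 cell line, so the signal of such a marker does not by itself show cells of that type. What these marker signals reflect was not tested. In RNA of whole cultures, fewer cells of a kind and less RNA per cell cannot be told apart.

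Of the 17 probes, 8 (47.1%) were past the threshold, 3 higher and 5 lower, where 53.8% of all tested probes were past it, 35.4% higher and 18.4% lower. After quantile normalization 4 of the 17 (23.5%) were past it, 1 higher and 3 lower, against 43.5% of all tested probes, 22.9% higher and 20.6% lower. Only 3 probes were past it in 1 direction whichever scaling was used, as were 40.7% of all tested probes: Nampt, which rose, and 1 probe each of Sirt4 and Sirt7, which fell. The 3 control arrays and the 3 overexpression arrays did not overlap for 11 of the 16 probes with all 6 values (68.8%), against 63.6% of all such probes. The total shares of these probes past the threshold were thus below those of the whole array, and the share without overlap was slightly above. Lower calls alone were a larger share under the 75th percentile (5 of 17 against 18.4%), but not after quantile normalization (3 of 17 against 20.6%). The median change of the 17 probes was -0.08, and -0.10 after quantile normalization. Taking each gene by its brightest tested probe, 5 of 10 genes were past the threshold (Sirt2 and Nampt higher, Sirt1, Sirt5 and Sirt7 lower) where 53.3% of all genes were, and 2 of 10 after quantile normalization (Nampt and Sirt7), where 42.4% were. Among the 13 probes of the 7 sirtuins, 9 had a lower mean with overexpression and 5 of these passed, while 1 passed higher. After quantile normalization 11 had a lower mean. The share of all tested probes with a lower mean was not counted, and some genes have several probes. Whether sirtuins as a family were lower than other genes was therefore not tested.

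**Figure D1:**
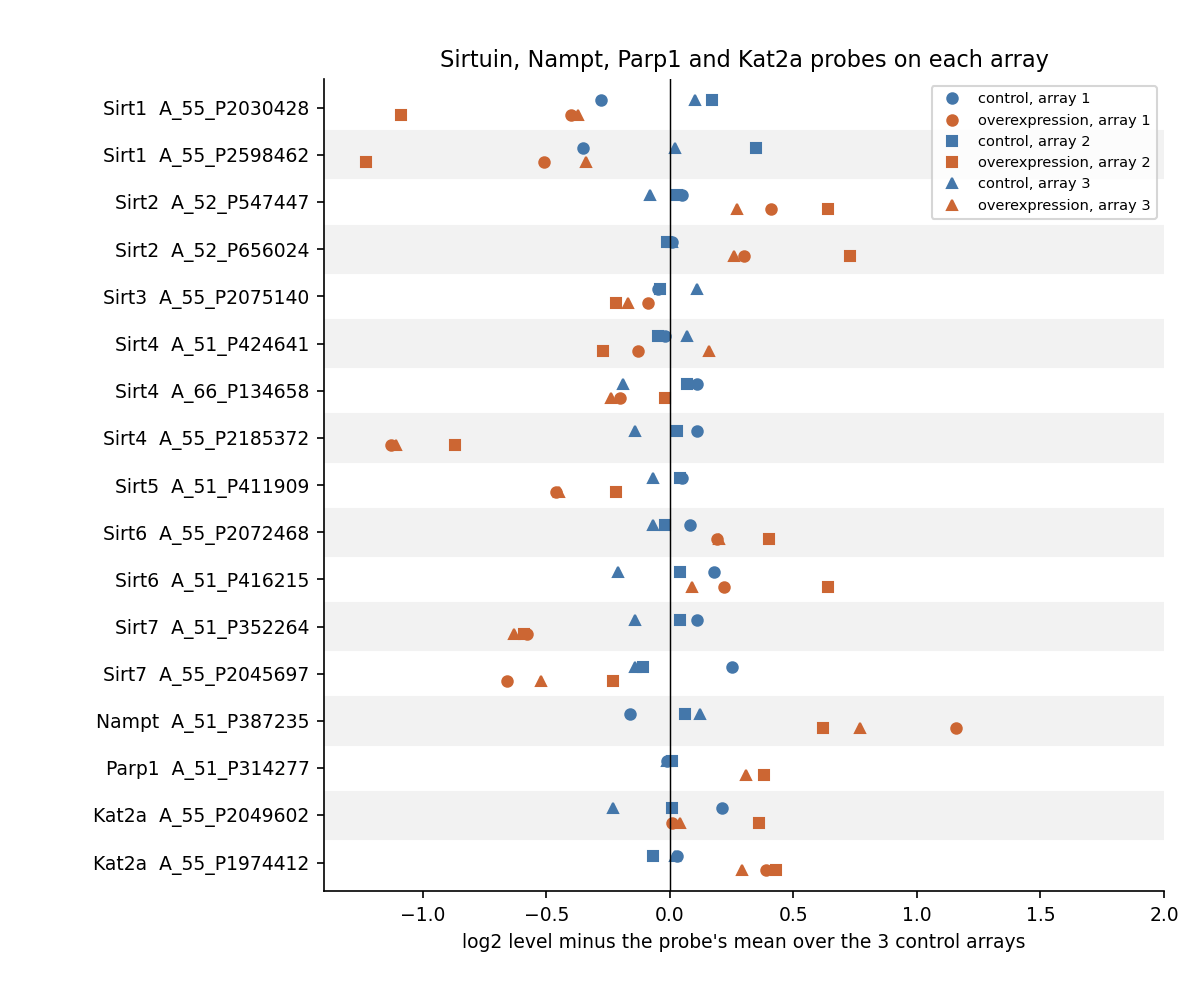
Level of each of the 17 probes on each array, as the log2 level minus the mean of the 3 control arrays for that probe (x axis), with 1 row per probe, control arrays in blue above and overexpression arrays in orange below. The overexpression arrays lie wholly to the right of the controls for Nampt, both Sirt2 probes, Sirt6 probe A_55_P2072468 and Kat2a probe A_55_P1974412. They lie wholly to the left for Sirt1 probe A_55_P2030428, Sirt3, Sirt4 probe A_55_P2185372, Sirt5 and both Sirt7 probes. Parp1 has 2 overexpression values, both to the right.

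The promoters of Sirt1, Sirt7 and Nampt are shown because these are the nuclear sirtuins with lower levels and the NAD+ salvage gene with higher levels on the overexpression arrays. Each window is the RefSeq sequence just before the annotated gene start in GRCm38.p6, 5′ to 3′ on the strand of the gene, kept only where no annotated gene lies. Capitals mark matches, on either strand, to 4 motifs: GGGCGG (GC box), CACGTG (E-box, the same on both strands), CCGGAAG (GABP and other ETS factors) and AAGGTCA (ERR). The Sirt1 window is chr10:63339036-63339285 (minus strand, 250 bases, 79.2% G or C), that of Nampt chr12:32820085-32820334 (plus strand, 250 bases, 75.6%), and that of Sirt7 chr11:120625015-120625116 (minus strand, 61.8%), only 102 bases because the annotated span of the neighbouring gene Mafg lies beyond them.
Sirt1: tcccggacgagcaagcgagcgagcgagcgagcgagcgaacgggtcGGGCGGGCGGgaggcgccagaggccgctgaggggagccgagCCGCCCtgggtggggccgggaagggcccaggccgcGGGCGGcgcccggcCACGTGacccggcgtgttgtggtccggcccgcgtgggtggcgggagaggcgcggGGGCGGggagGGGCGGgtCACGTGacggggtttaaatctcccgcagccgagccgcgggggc
Nampt: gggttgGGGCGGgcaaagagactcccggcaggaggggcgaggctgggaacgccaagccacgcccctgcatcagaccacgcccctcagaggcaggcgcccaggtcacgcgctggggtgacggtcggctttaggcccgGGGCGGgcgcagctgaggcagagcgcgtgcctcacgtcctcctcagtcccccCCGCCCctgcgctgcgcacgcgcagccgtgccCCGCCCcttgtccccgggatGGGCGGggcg
Sirt7: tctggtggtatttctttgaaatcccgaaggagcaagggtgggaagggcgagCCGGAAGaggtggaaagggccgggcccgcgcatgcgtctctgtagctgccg
The Sirt1 window held 2 E-boxes, starting 115 and 43 bases before the gene start, and 6 GC boxes, of which those at 205 and 201 bases overlap each other. The Nampt window held 5 GC boxes, and the Sirt7 window held 1 ETS match at 51 bases. Over the full 250 bases before each start, 12 windows of the 10 genes were searched along with 32851 promoters of the RefSeq table. A GC box was in 8 of the 12 windows and in 32.7% of all promoters, an E-box in 2 (Sirt1 and Parp1) and 6.02%, the ETS motif in 3 (Sirt3, Sirt6 and Sirt7) and 6.91%, and the ERR motif in 1 (Sirt5) and 4.08%. A match of letters is no evidence that a factor binds there.

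Sirt1, the nuclear deacetylase of PGC-1α, had a lower mean in the overexpression arrays at both of its probes, but the call was fragile. At the brighter probe, A_55_P2030428, the control arrays read -0.87, -0.42 and -0.49 and the overexpression arrays -0.99, -1.68 and -0.96. The groups did not overlap, although control array 1 and overexpression array 1 lay only slightly apart and overexpression array 2 was the lowest. The change was -0.62 (SE 0.23, 95% confidence interval -1.15 to -0.09, limma adjusted p = 0.049), or 0.651 times the control level. Relative to the median of all probes it was -0.87, but tested probes of like brightness (median level -0.77) had a median change of only -0.05. After quantile normalization the Sirt1 change was -0.59, with an adjusted p of 0.07. Without overexpression array 2 it shrank to -0.39 (adjusted p = 0.10), and it also missed the threshold without control array 2 (0.14), without control array 3 (0.12) and without overexpression array 1 (0.063). The call remained without control array 1 (-0.76, adjusted p = 0.044) and without overexpression array 3 (-0.74, adjusted p = 0.034), and within slides the difference was -0.69 on slide 1 and -0.48 on slide 2.

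The second Sirt1 probe, A_55_P2598462, gave a change of the same direction on the other side of the threshold. Its control levels were -3.62, -2.92 and -3.25 and its overexpression levels -3.78, -4.50 and -3.61, so that control array 1 fell just below overexpression array 3 and the groups overlapped. The change was -0.70 (SE 0.27, interval -1.32 to -0.08, limma adjusted p = 0.058), and after quantile normalization -0.83 (adjusted p = 0.049). With the slide as a block the same change passed (adjusted p = 0.044), and with normexp background correction it was -0.30 (adjusted p = 0.12). Without overexpression array 2 it was -0.43 (adjusted p = 0.14), and it passed without control array 1 (-0.88, adjusted p = 0.045) and without overexpression array 3 (-0.87, adjusted p = 0.029). Both probes were lowest on overexpression array 2, and their changes differed by 0.08 (SE 0.10). When the 2 probes were averaged, the change was -0.66 with an adjusted p of 0.054.

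Over the 6 arrays, the genes whose levels followed Sirt1 probe A_55_P2030428 most closely were Slc38a6, a member of the amino acid transporter family SLC38, Lctl, a lactase-like gene, and Tbc1d15, a Rab GTPase activating protein. Their root mean square distances from it, with each gene centred on its own mean, were 0.047, 0.0527 and 0.058 on the log2 scale among 16296 genes, against a spread of 0.414 for Sirt1 itself. Their changes were -0.69, -0.54 and -0.64. The likeness rests on 6 arrays and describes only the shape of the levels over them.

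Sirt7, a nucleolar deacetylase that acts on ribosomal gene transcription, fell under both scalings at its brightest probe. Probe A_51_P352264 read 0.24, 0.17 and -0.01 in controls and -0.45, -0.46 and -0.50 with overexpression. The overexpression arrays lay within 0.05 of each other and all below the lowest control array. The change was -0.61 (SE 0.13, interval -0.91 to -0.31, limma adjusted p = 0.0068), or 0.656 times the control level, and -0.60 after quantile normalization (adjusted p = 0.0069). It stayed past the threshold in 18 of 18 alternative settings, with adjusted p between 0.0012 and 0.029, and was -0.66 on slide 1 and -0.50 on slide 2. The second probe, A_55_P2045697, read -0.38, -0.74 and -0.77 in controls and -1.29, -0.86 and -1.15 with overexpression. Its groups were separate too, but control arrays 2 and 3 lay close to overexpression array 2. Its change of -0.47 (SE 0.17, limma adjusted p = 0.049) missed the threshold after quantile normalization (-0.44, adjusted p = 0.076) and whenever any array other than overexpression array 2 was left out (-0.35 without control array 1 to -0.54 without control array 3, adjusted p 0.064 to 0.16), whereas without overexpression array 2 it was -0.59 (adjusted p = 0.026). The changes of the 2 probes differed by -0.14 (first minus second, SE 0.15, exact permutation p = 0.50).

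Sirt6, the chromatin-bound deacetylase of telomeres and glycolytic genes, had a higher mean with overexpression at both probes, neither past the threshold. Probe A_55_P2072468 read 1.27, 1.17 and 1.12 in controls and 1.38, 1.59 and 1.39 with overexpression, without overlap, and changed by 0.27 (SE 0.13, interval -0.04 to 0.57, limma adjusted p = 0.12). That change was 0.02 relative to the median of all probes, and 0.07 relative to it after quantile normalization. Probe A_51_P416215 read -0.53, -0.67 and -0.92 against -0.49, -0.07 and -0.62, with overlap, and changed by 0.31 (SE 0.19, interval -0.12 to 0.74, adjusted p = 0.18).

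Sirt2, the mainly cytoplasmic sirtuin known as a tubulin deacetylase, rose at 1 of 2 probes under the 75th percentile scaling and at 0 of 2 after quantile normalization. Probe A_52_P547447 read 3.13, 3.11 and 3.00 in controls and 3.49, 3.72 and 3.35 with overexpression, and all 3 overexpression arrays were above all controls. The change was 0.44 (SE 0.14, interval 0.11 to 0.78, limma adjusted p = 0.032), but -0.04 after quantile normalization (adjusted p = 0.83), -0.10 after normexp background correction with quantile normalization (0.43) and -0.04 in the authors' log2 values (0.81). Probe A_52_P656024 read 2.85, 2.83 and 2.85 against 3.14, 3.57 and 3.10, a change of 0.43 (SE 0.16, adjusted p = 0.052) that passed with the slide as a block (adjusted p = 0.041) and was 0.00 to 2 decimals after quantile normalization (adjusted p = 0.99). Of the 6 fits without 1 array, that of probe A_52_P547447 stayed past the threshold only without overexpression array 3 (0.53, adjusted p = 0.027), and the others gave 0.34 to 0.47 with adjusted p between 0.065 and 0.093. In the brightest 9730 tested probes, with mean levels from 0.47 to 6.71, which hold both Sirt2 probes, the median change was 0.34 under the 75th percentile and 0.00 after quantile normalization.

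**Figure D2:**
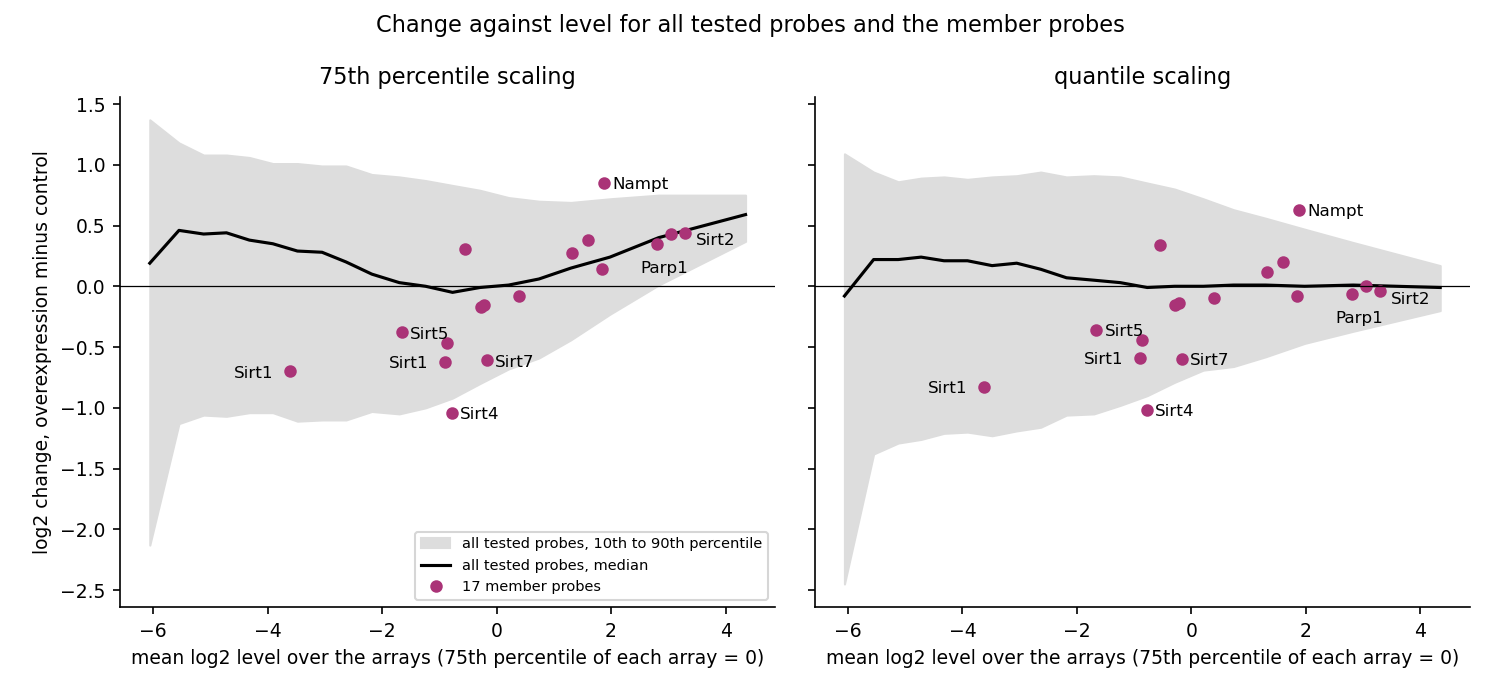
Change (y axis, overexpression minus control, log2) against mean level over the arrays (x axis, log2, array 75th percentile at 0) under both scalings. The line and the grey band give the median and the 10th to 90th percentile of all 38919 tested probes in bins of level, and points are the 17 probes; Sirt2, Parp1 and Kat2a lie in the bright range where the line rises under the 75th percentile and is flat after quantile normalization, while Nampt lies above the line and Sirt1, Sirt4, Sirt5 and Sirt7 lie below it in both panels.

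The mitochondrial sirtuins Sirt3, Sirt4 and Sirt5 had lower means at all 5 of their probes under both scalings, and 2 of the 5 passed. Sirt3, the main mitochondrial deacetylase, read -0.25, -0.24 and -0.09 at probe A_55_P2075140 in controls and -0.29, -0.42 and -0.37 with overexpression. The groups did not overlap, but the change of -0.17 (SE 0.13, interval -0.46 to 0.13, limma adjusted p = 0.30) passed in 0 of 18 alternatives. Sirt5, which removes succinyl and malonyl groups, read -1.42, -1.43 and -1.54 at probe A_51_P411909 against -1.93, -1.69 and -1.92. All overexpression arrays were below all controls, and the difference was -0.38 on both slides. The change of -0.38 (SE 0.13, interval -0.69 to -0.07, adjusted p = 0.043) was -0.36 after quantile normalization, just on the other side of the threshold (adjusted p = 0.052). It remained past the threshold without overexpression array 2 (-0.46, adjusted p = 0.023), and missed it without control arrays 1 (0.11), 2 (0.12) or 3 (0.069) and without overexpression arrays 1 (0.14) or 3 (0.11).

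The 3 probes of Sirt4, a mitochondrial ADP-ribosyltransferase and lipoamidase that restrains glutamate dehydrogenase and pyruvate dehydrogenase, did not give the same change. Probe A_55_P2185372 read -0.15, -0.23 and -0.40 in controls and -1.39, -1.13 and -1.37 with overexpression, so that the groups were far apart. Its change of -1.04 (SE 0.14, interval -1.37 to -0.71, limma adjusted p = 0.0013), or 0.487 times the control level, was the furthest from 0 of the 17 probes. It was -1.02 after quantile normalization (adjusted p = 0.0017), -1.07 on slide 1 and -0.97 on slide 2, and past the threshold in 18 of 18 alternatives. The brightest Sirt4 probe, A_51_P424641, read 0.41, 0.38 and 0.50 against 0.30, 0.16 and 0.59. These groups overlapped, and the change was -0.08 (SE 0.15, interval -0.43 to 0.27, adjusted p = 0.66). Probe A_66_P134658 read -0.03, -0.07 and -0.33 against -0.34, -0.16 and -0.38, again with overlap, and changed by -0.15 (SE 0.14, interval -0.48 to 0.18, adjusted p = 0.40).

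The changes of the Sirt4 probes were compared within each array, since all 3 are assigned to 1 transcript accession (NM_001167691). The change of probe A_55_P2185372 was lower than that of A_51_P424641 by 0.95 (SE 0.22) and lower than that of A_66_P134658 by 0.89 (SE 0.03), with no overlap between groups in either difference. Each had an exact permutation p of 0.1, the smallest that 3 against 3 arrays allow, and an adjusted value of 0.4 over the 8 probe pairs of the 6 genes with several probes. The other 6 pairs differed by -0.24 to 0.08, with exact permutation p from 0.3 to 1.0. Where in the transcript each probe lies was not analysed here, and the probes were not told apart by isoform. Averaged over its 3 probes, Sirt4 changed by -0.42 (limma adjusted p = 0.021).

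**Figure D3:**
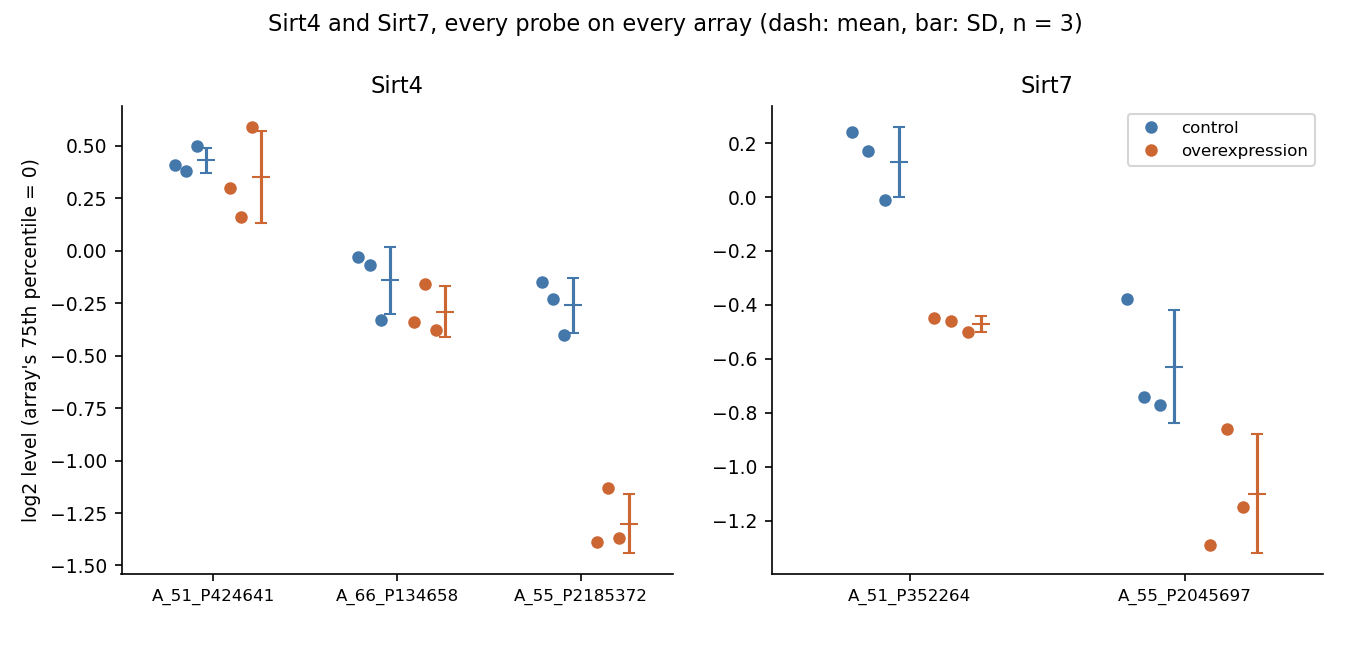
Log2 level (y axis, array 75th percentile at 0) of the 3 Sirt4 probes and the 2 Sirt7 probes on each control array (blue) and overexpression array (orange), with the mean and SD of 3 arrays beside the points. For Sirt4, control and overexpression arrays overlap at A_51_P424641 and A_66_P134658 and are apart at A_55_P2185372, while for Sirt7 they are apart at both probes.

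Nampt was the only one of the 10 genes that was past the threshold and higher under both scalings. Its probe, A_51_P387235, read 1.29, 1.51 and 1.57 in controls and 2.61, 2.07 and 2.22 with overexpression. All 3 overexpression arrays were above all 3 controls, with overexpression array 1 the highest. The change was 0.85 (SE 0.17, interval 0.44 to 1.25, limma adjusted p = 0.0060), or 1.80 times the control level, and 0.60 relative to the median of all probes. After quantile normalization it was 0.63 (adjusted p = 0.025), or 0.58 relative to the median. It passed in 18 of 18 alternatives, with 0.69 to 0.96 when 1 array was left out, 0.94 on slide 1 and 0.66 on slide 2.

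Parp1 was not past the threshold. Probe A_51_P314277 read 2.66, 2.68 and 2.66 in controls and 3.05 and 2.98 on overexpression arrays 2 and 3, with no overlap between the 5 values. The change of 0.35 (SE 0.14, interval 0.01 to 0.69, limma adjusted p = 0.075) was 0.10 relative to the median of all probes and turned to -0.06 after quantile normalization (adjusted p = 0.74).

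Kat2a, the acetyltransferase opposed to SIRT1 on PGC-1α, had 1 of 2 probes past the threshold. Its brightest probe, A_55_P2049602, read 1.99, 1.79 and 1.55 in controls and 1.79, 2.14 and 1.82 with overexpression, with overlap, and changed by 0.14 (SE 0.17, interval -0.26 to 0.53, limma adjusted p = 0.51), or -0.08 after quantile normalization. Probe A_55_P1974412 read 1.44, 1.34 and 1.43 against 1.80, 1.84 and 1.70, without overlap. Its change was 0.38 (SE 0.12, interval 0.09 to 0.66, adjusted p = 0.034), 0.13 relative to the median of all probes, and 0.20 after quantile normalization (adjusted p = 0.16). With any 1 array left out this probe missed the threshold, with changes of 0.34 without control array 2 to 0.42 without overexpression array 3 and adjusted p from 0.050 to 0.11. Averaged over both probes, Kat2a changed by 0.26 (adjusted p = 0.14).

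**Figure D4:**
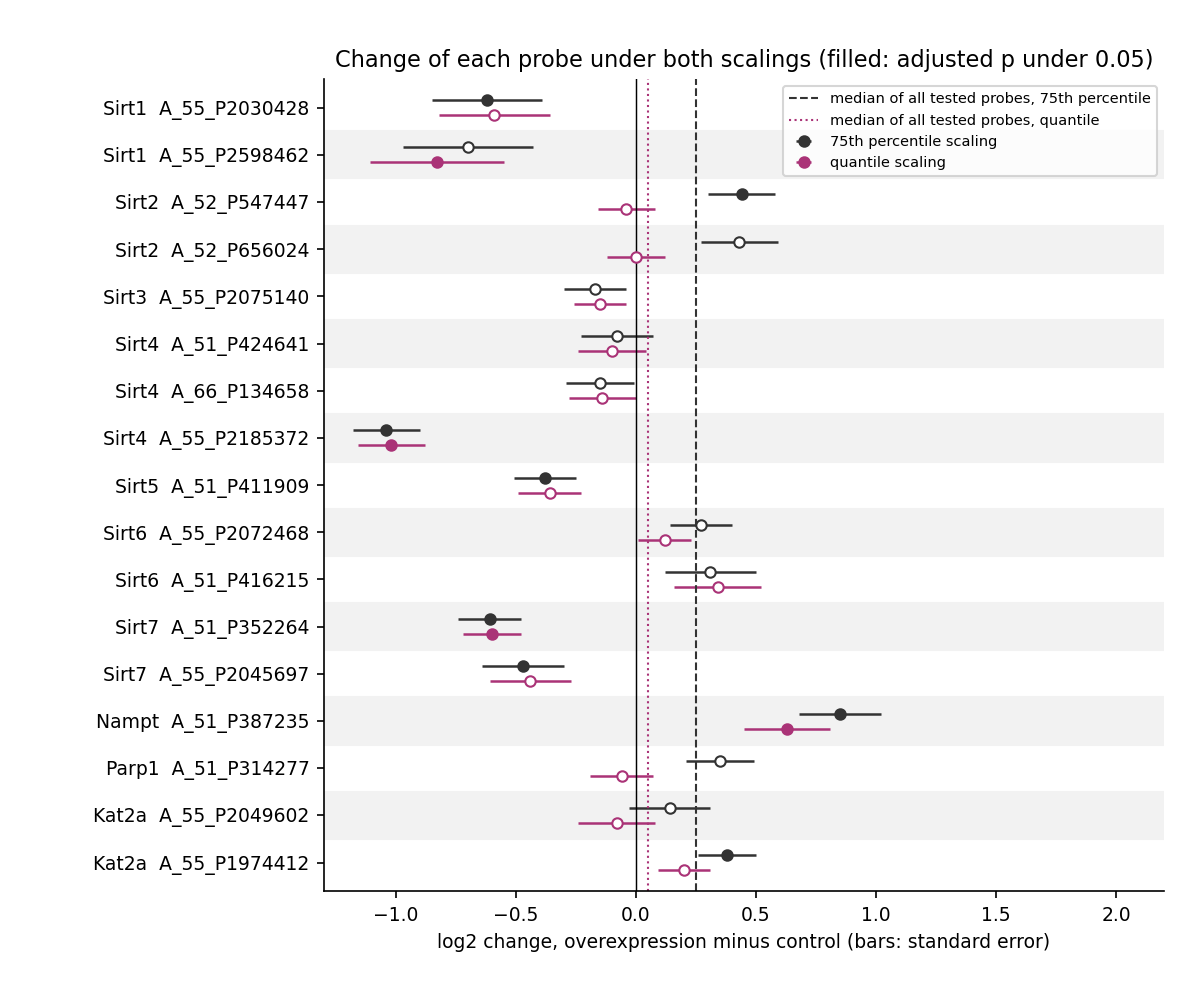
Change of each of the 17 probes (x axis, overexpression minus control, log2, with its standard error) under the 75th percentile scaling (black) and after quantile normalization (purple), filled where the adjusted p is under 0.05. The dashed and dotted lines are the medians of all tested probes, 0.25 and 0.05; Nampt is filled to the right and Sirt4 probe A_55_P2185372 and Sirt7 probe A_51_P352264 are filled to the left under both scalings.

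The other genes of the pathway were taken from 7 lists: 146 genes, of which 135 were tested. Under the 75th percentile 61 of the 135 (45.2%) were past the threshold, 30 higher and 31 lower, where 53.3% of all genes were, 34.8% higher and 18.5% lower. After quantile normalization 50 (37.0%) were, 13 higher and 37 lower, where 42.4% of all genes were, 21.4% higher and 21.1% lower. The median change of all genes was 0.23 under the first scaling and 0.03 under the second.

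Genes of the NAD+ synthesis list held their calls under both scalings: of 18 tested, 7 were higher and 3 lower under each, with a median change of 0.33 (0.19 after quantile normalization). The list also holds genes that act on NAD+ or nicotinamide without making NAD+. These include Nadk2, among the 7 higher, and Nadk, among the 3 lower. Nnmt and the mitochondrial NAD+ carrier Slc25a51 are others, and neither was past the threshold. Kynureninase (Kynu), of the tryptophan route to NAD+, rose by 1.43 (SE 0.28, limma adjusted p = 0.0052). Its probe was dim (mean control level -4.72), and the rise was 0.69 to 1.63 over the alternatives. Ido2, at the entry of that route, rose by 1.09 (SE 0.20, adjusted p = 0.0037) at its brightest probe. Its other probe changed by 0.78 and did not pass. Nmnat3, the mitochondrial form of the transferase that completes NAD+ synthesis, fell by 0.57 (SE 0.14, adjusted p = 0.011). Nmnat2, the form best known from axons, is counted among the 3 lower, but it passed the filter on dim probes only through the control arrays. It was not well above background on any overexpression array and only slightly above it in controls (mean level -6.64). Its change reached 0.35 in the other direction among the alternatives, so neither a direction nor a size is read from it. Of the 20 tested genes listed as NAD+ consuming enzymes, 3 were higher and 7 lower (median -0.14), and after quantile normalization 1 and 8 (median -0.26). That list also holds Parg, Macrod1 and Macrod2, which act on ADP-ribose groups and do not use NAD+. Of these, Macrod2 (0.54, adjusted p = 0.034) was among the 3 higher. Parp14, an interferon-inducible mono-ADP-ribosyltransferase, fell by 1.67 (SE 0.19, adjusted p = 0.00061; -1.86 to -0.64 over the alternatives), with its other probe also past the threshold at -0.46. Parp11 fell by 1.00 (SE 0.13, adjusted p = 0.0010, and -1.11 to -0.45 over the alternatives), with its other probe at -0.34 and not past the threshold. Parp6 rose by 0.74 (SE 0.13, adjusted p = 0.0032) and by 0.47 after quantile normalization (adjusted p = 0.015). Parp16, of the endoplasmic reticulum, rose by 0.54 (SE 0.20, adjusted p = 0.047), a call that was lost after quantile normalization (0.48, adjusted p = 0.070).

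Of the 16 genes listed as lysine acetyltransferases beside Kat2a, 4 were higher and 6 lower (median -0.09), and after quantile normalization 2 and 6 (median -0.24). That list also holds Naa10 and Naa60, known mainly as acetyltransferases of protein N-termini, and both were among the 4 higher. Naa60 (0.44, limma adjusted p = 0.035) was also past the threshold after quantile normalization (0.46, adjusted p = 0.033). Ep300, the p300 coactivator acetyltransferase, fell by 1.52 (SE 0.14, limma adjusted p = 0.00028), and Kat14, the second acetyltransferase of the ATAC complex, by 0.94 (SE 0.14, adjusted p = 0.0015) at its brightest probe, while its other probe changed by -0.05 and did not pass. Ncoa3, a nuclear receptor coactivator, rose by 0.70 at its brightest probe (SE 0.14, adjusted p = 0.0050), while another of its 3 probes was past the threshold in the other direction, at -0.91. Naa10 rose by 0.69, which was 0.13 after quantile normalization (adjusted p = 0.43). Of 10 zinc-dependent deacetylases, which do not use NAD+, 0 were higher and 2 lower (median 0.04), and 0 and 3 after quantile normalization (median -0.23). The 2 were Hdac4, which fell by 0.69 (SE 0.13, adjusted p = 0.0043), and Hdac9, which fell by 0.58 (SE 0.19, adjusted p = 0.034).

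Of 21 partners of Kat2a in the SAGA and ATAC complexes, 6 were higher and 5 lower (median 0.11). None of the 6 higher calls held after quantile normalization, where 0 were higher and 5 lower (median -0.08). Taf10 and Supt7l, with changes of 0.62 and 0.69, were at 0.01 (adjusted p = 0.98) and 0.06 (0.69) there. The adaptors Tada2b, which fell by 1.61 (SE 0.18, limma adjusted p = 0.00056), and Tada1, which fell by 1.18, passed under both. The change of Tada2b was -1.75 to -0.91 over the alternatives. Among 23 tested regulators of SIRT1 and other modifiers of PGC-1α, 2 were higher and 5 lower (median -0.01), and 1 and 8 after quantile normalization (median -0.21). Prkaa1, the α1 catalytic subunit of AMPK, which phosphorylates PGC-1α, fell by 2.07 (SE 0.24, adjusted p = 0.00067). Fbxw7, the ubiquitin ligase subunit that targets PGC-1α, fell by 2.24 (SE 0.15, adjusted p = 8e-05), with its other probe also past the threshold at -0.82. Gsk3b, a kinase that marks PGC-1α for degradation, rose by 0.59 (SE 0.13, adjusted p = 0.0073) at its brightest probe, with another of its 3 probes past the threshold at -1.13. Mybbp1a, a repressor of PGC-1α, rose by 0.64, which was 0.02 after quantile normalization (adjusted p = 0.89).

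Of 27 tested substrates and partners of sirtuins, 8 were higher and 3 lower (median 0.13), and after quantile normalization 2 and 4 (median -0.11). Foxo3, a forkhead factor deacetylated by SIRT1, rose by 1.13 (SE 0.15, limma adjusted p = 0.0010) and by 1.12 after quantile normalization. Pdha1, a pyruvate dehydrogenase subunit, rose by 0.65, which was 0.17 after quantile normalization (adjusted p = 0.23). Mlycd, the malonyl-CoA decarboxylase that SIRT4 deacetylates, fell by 0.95 (SE 0.15, adjusted p = 0.0022), and Polr1b, the second largest subunit of RNA polymerase I, fell by 0.72 (SE 0.16, adjusted p = 0.0079).

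**Figure D5:**
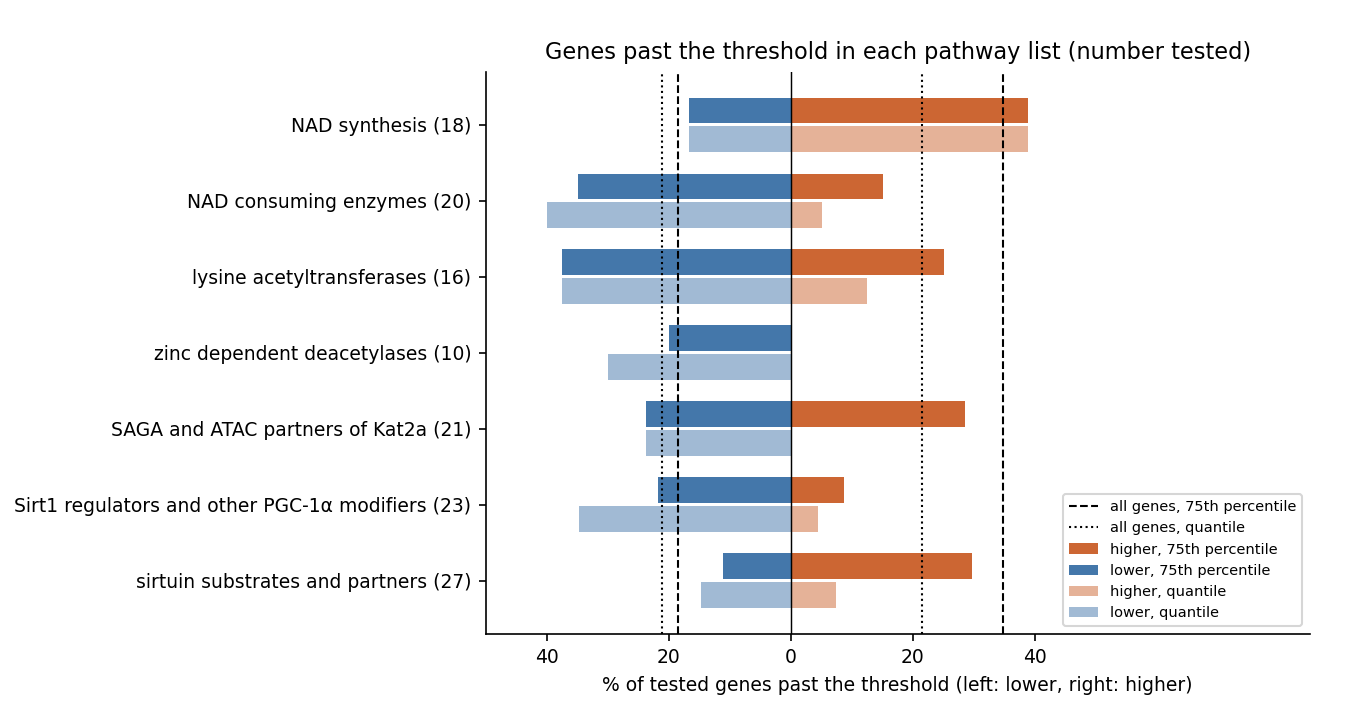
Share of the tested genes of each list (number in brackets) past the threshold, higher to the right in orange and lower to the left in blue (x axis, percent), under the 75th percentile (dark bars) and after quantile normalization (light bars), with the shares of all genes as dashed and dotted lines. The NAD+ synthesis bars have the same length under both scalings, while the 6 higher genes of the SAGA and ATAC list fall to 0.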

How the data were processed

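The members and gene lists were chosen with earlier results of these data known. The authors' scanner software, Agilent Feature Extraction 11.5.1.1 per the submitters' processing notes, gave a background-corrected intensity for each of 62976 spots of an Agilent mouse array, green channel only. The labels name the dye as Cy3 and the labelling protocol as Cy5. The deposited intensity values carry no scaling of one array to another. A second deposited table holds the authors' log2 values of 42110 probes, normalized in GeneSpring by a procedure whose name is not given in the sources used here, and they were used as an alternative (Pearson's r with the intensities 0.9988 to 0.9998 per array).

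The intensities were put on a log2 scale, less the 75th percentile of the 59305 non-control spots of the same array. Outlier spots (149 to 1590 of an array) were dropped, and spots of 1 probe averaged. Between 41122 and 45165 spots per array were well above background. Accessions matched 33767 of 56605 probes (59.7%) to a RefSeq table of GRCm38; the array design names mm9, so no probe coordinates are given. A probe was tested if each group had values on at least 2 arrays and if it was well above background on all 3 of at least 1 group (38919 probes, 17062 genes, 1605 probes lacking a value on some array). The comparison used limma 3.58.1 (lmFit, eBayes; R 4.3.3), with two-sided p-values Benjamini-Hochberg adjusted over all tested probes with a threshold of 0.05. The steps were tested on simulated data. Probe pairs were compared with exact permutation tests in scipy 1.17.1. Tables and plots used pandas 2.3.3 and matplotlib 3.10.9.

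A gene's brightest tested probe stood for it in counts. The genes named are the members, Ppargc1a, in each list the 2 largest positive and 2 largest negative changes past the threshold whose 3 arrays of one group do not overlap the 3 of the other, and the 3 genes nearest to Sirt1. Marker genes were read the same way. Values are given for some of them, and 1 marker is left out of the text. Alternatives were quantile normalization, normexp with an offset of 50 under either scaling, the median, other filters, probe means per gene, a block for the slide or the replicate number, robust estimation with a variance trend, weighted arrays, the authors' log2 values, slide 1 alone, and each array left out. The number of arrays limits the precision.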

Additional observations from a re-analysis of the deposited data

How the results depend on the processing

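The 8 probes past the threshold became 4 with quantile normalization, 3 with no filter on dim probes, 4 with the authors' log2 values, 3 on slide 1 alone, and 3 to 7 when 1 array was left out, but 10 with probes well above background on all arrays, with array weights or with the slide as a block, and 11 with a variance trend and robust estimation. The 5 genes became 2 with quantile normalization, with no filter, with the authors' values and on slide 1 alone, and 2 to 4 when 1 array was left out, but 6 with the variance trend. Over all settings run, the 20943 probes of the whole array ranged from 15212 to 25257 and the 61 pathway genes from 43 to 77, within 1.5 times. The cause was not tested. Nampt, Sirt4 probe A_55_P2185372 and Sirt7 probe A_51_P352264 kept their direction and side of the threshold in all 18 alternatives run on probes.

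Some probes turned direction with the scaling. Sirt2 probe A_52_P547447 changed by -0.04 with quantile normalization, -0.10 with normexp and quantile normalization and -0.04 in the authors' values, and Sirt2 probe A_52_P656024 by -0.00 with quantile normalization and -0.00 in the authors' values but 0.01 with normexp and quantile normalization, all next to 0. Parp1 changed by -0.06, -0.14 and -0.07 and Kat2a probe A_55_P2049602 by -0.08, -0.13 and -0.07 under these 3 settings. Sirt4 probe A_51_P424641 changed by -0.20 to 0.01 when 1 array was left out, and by 0.01 without overexpression replicate 2. Of all called probes 65.9% were higher in the main analysis, 52.6% after quantile normalization and 52.7% in the authors' values, and with normexp 76.8% under the 75th percentile scaling and 49.1% after quantile normalization.

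Replicate numbers did not pair the samples: same-numbered arrays' deviations from their group means correlated at -0.206, 0.00315 and 0.592 across 37314 probes. With the replicate block, 6 probes, 4 genes and 22803 probes of the whole array were past the threshold, and with the slide as a block 10, 5 and 24083. With 3 arrays per group, 0.1 is the smallest two-sided exact permutation p.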

Other observations

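The RefSeq annotation places several measured genes over the 10 genes or within 1000 bases of them. Gdap10, a long non-coding RNA annotated over Nampt, rose by 0.81 (SE 0.21, limma adjusted p = 0.014) and by 0.83 after quantile normalization, next to the 0.85 of Nampt. Beside Sirt7, Pcyt2, of phosphatidylethanolamine synthesis, changed by -0.15 (adjusted p = 0.51) and Mafg, a small Maf factor, by -0.07 (adjusted p = 0.78), next to the -0.61 of Sirt7. Rinl, beside Sirt2, fell by 1.17 (adjusted p = 0.0010), while Gm19897, a long non-coding RNA over Sirt2, rose by 1.25 (adjusted p = 0.0003). Nfkbib, an inhibitor of NF-kB also beside Sirt2, changed by 0.35 (adjusted p = 0.08), but by -0.14 after quantile normalization (adjusted p = 0.39). Ankrd24, beside Sirt6, fell by 0.83 (adjusted p = 0.0057), and Dhx58, which encodes the RNA sensor LGP2 and lies beside Kat2a, fell by 0.60 (adjusted p = 0.011). Beside or over Sirt3, Psmd13, a proteasome subunit, changed by -0.04 (adjusted p = 0.79) and Ric8a, a G protein chaperone, by -0.27 (adjusted p = 0.19). For overlapping genes the array probes were matched by accession, and which strand or exon they read was not analysed here.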
